A study of Mus musculus with 19 samples.

Results

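Burn injury was compared with sham injury in CD44low regulatory T cells (Tregs) across 11 of the 19 libraries of the series, chosen by their labels alone: 6 libraries from burned mice and 5 from sham mice. Tregs were sorted as CD4+FoxP3-GFP+ T cells with low surface CD44 from lymph nodes of Foxp3DTR mice, 7 days after injury. The burn mice had been anesthetized and scalded in hot water and the sham mice had been anesthetized and placed in water at room temperature, and both groups received buprenorphine and saline. All mice were young adults of the Foxp3DTR strain and carried its allele, which couples a GFP reporter and the human diphtheria toxin receptor to Foxp3, so the allele was shared by both groups. The labels do not say whether a library came from 1 mouse or from pooled mice, so the p-values below measure the spread between libraries, part of which may be technical. The edgeR fits estimated this spread over all 19 libraries, those of CD44high Tregs included, unless another fit is named. The burn libraries fell into 2 sets by name: libraries 1, 2 and 5 carried a single number, and libraries 1_2, 4_2 and 5_2 carried a second number whose meaning the labels do not give. The labels also do not say whether libraries 1 and 1_2, or 5 and 5_2, came from the same mouse, in which case the 6 burn libraries would be 4 samples. The sham libraries 1 to 5 carried no second number. The table gave raw counts per gene, with 5582234 to 8011051 counts in each CD44low library.

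Tregs restrain other T cells and depend on the transcription factor FoxP3. CD44low Tregs are largely resting cells that circulate through lymph nodes, whereas CD44high Tregs carry receptors for tissue homing and suppressive molecules. In resting T cells, FOXO transcription factors keep genes for quiescence and survival switched on, and signalling through PI3K and AKT, set off by the T cell receptor, costimulation and cytokines, moves FOXO factors out of the nucleus. Glucocorticoids, which are released in stress, induce some of the same genes in T cells.

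The sort was visible in the RNA. Cd44 was 111 to 156 CPM (per-million counts, scaled by TMM factors) in CD44low sham libraries and 541 to 626 CPM in CD44high sham libraries, with no overlap (exact permutation test, 2-sided, p = 0.0159 for 5 against 4, the smallest p these numbers allow). CD44low libraries from burned mice lay at 102 to 149.8 CPM, within or below the sham range (log2 fold change -0.18 ± 0.11 (SE), edgeR adjusted p = 0.284). Foxp3 was detected in every library, at 144, 116, 112, 101 and 104 CPM in sham libraries 1 to 5, 76, 82.8 and 65.5 CPM in burn libraries 1, 2 and 5, and 76.4, 181 and 139.8 CPM in burn libraries 1_2, 4_2 and 5_2. The burn libraries were thus spread to both sides of the sham range, and the difference did not pass the test (adjusted p = 0.68). All 3 libraries without a second number lay below every sham library. Foxp3 was called lower with these 3 as the only burn libraries (log2 -0.62, edgeR adjusted p = 0.0195) and with burn libraries 4_2 and 5_2 left out (log2 -0.60, edgeR adjusted p = 0.00948). Cd4 and Il2ra, which encodes CD25, gave adjusted p = 0.13 and 0.271. In the exact permutation test of burn against sham, unadjusted, Cd44, Foxp3, Cd4 and Il2ra gave p = 0.1515, 0.385, 0.0346 and 0.0649. The log2 difference of Cd4 was -0.25.

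Of 11464 genes tested with edgeR's quasi-likelihood test, 486 (4.24%) were higher and 385 (3.36%) were lower after burn at an adjusted p (Benjamini-Hochberg) under 0.05. At an unadjusted p under 1e-06 and a change of at least 2-fold, 10 genes (0.0872%) were higher and 4 (0.0349%) were lower. Tested on their own against the 5 sham libraries, in a model over 11648 genes, the burn libraries without a second number gave 616 genes higher (5.29%) and 619 lower (5.31%). The burn libraries with a second number gave 289 higher (2.48%) and 188 lower (1.61%). Both sets called 111 genes higher (0.953%) and 68 genes lower (0.584%), and 3 genes were called in opposite directions. Each of these 179 genes was also called over the 6 burn libraries together, and all 14 genes past the stricter threshold were called in both sets. The sets share the sham libraries, so the calls in both sets are not 2 independent results. Together the sets make up the 6 burn libraries, so the calls over all 6 are not independent of them either. In 92 of the 111 higher genes and 64 of the 68 lower genes, the burn and sham libraries did not overlap at all. Over all genes tested, 274 (2.39%) had every burn library above every sham library and 262 (2.29%) had every burn library below.

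**Figure D1:**
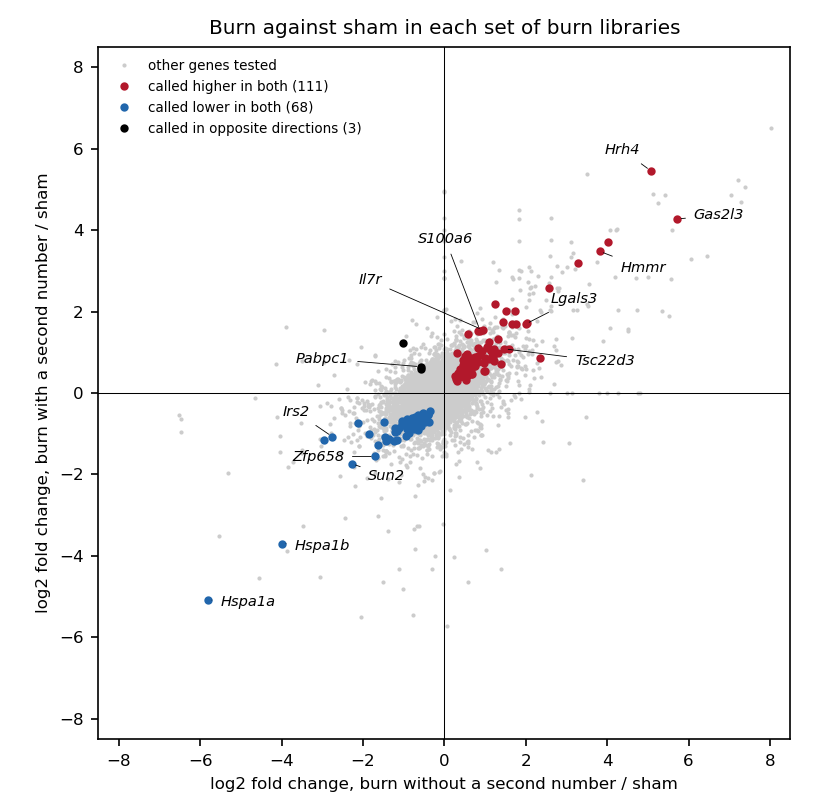
Log2 fold change of each of 11648 genes against sham, in burn libraries without a second number (horizontal axis) and with a second number (vertical axis). Red and blue points are the 111 genes called higher and the 68 called lower in both sets, black points are 3 genes called in opposite directions, and both axes use the same 5 sham libraries.

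With libraries 1 and 1_2 summed to 1 sample and libraries 5 and 5_2 to another, 411 genes were higher and 345 were lower. The counts of calls depended on single libraries. Without burn library 5_2, 1122 genes were higher and 771 were lower, and without burn libraries 4_2 and 5_2, 1321 were higher and 1031 were lower. With each library left out in turn, calls in both sets lay between 41 and 315 higher and between 21 and 189 lower. Transcript length moved with the comparison as well. With the genes split into 4 groups by transcript length, 227 of the 2840 shortest were higher and 26 were lower after burn, and 33 of the 2838 longest were higher and 199 were lower. The medians of these groups differed from the sham mean by 0.47 and -0.44 (log2) in burn library 1_2 but by 0.00 and 0.08 in burn library 5_2. After the length trend of each library was taken out, 460 genes were higher and 258 were lower, and 81 of the 111 higher genes and 45 of the 68 lower genes were still called in both sets.

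**Figure D2:**
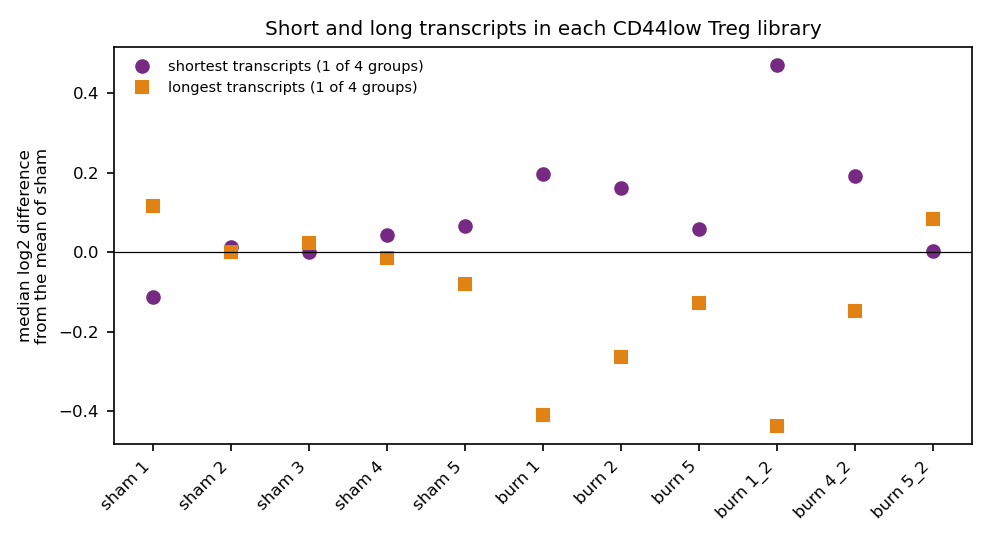
Median log2 difference from the mean of the 5 sham libraries for the genes with the shortest transcripts (circles) and the longest transcripts (squares), each 1 of 4 groups by length, for each CD44low library. Burn libraries 1 and 1_2 show the widest separation, and burn library 5_2 lies near the sham libraries.

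Pik3ip1 and Ddit4, whose products restrain PI3K and mTOR signalling, were higher after burn. Pik3ip1, whose product binds PI3K and lowers its activity, rose 2.12-fold. It stood at 127, 139.9, 122, 162 and 152 CPM in sham libraries 1 to 5, 245, 316 and 302 CPM in burn libraries 1, 2 and 5, and 349, 274 and 298 CPM in burn libraries 1_2, 4_2 and 5_2. Every burn library lay above every sham library, and the sets overlapped each other (log2 fold change 1.08 ± 0.11 (SE), adjusted p = 4.82e-06). Ddit4, which encodes the mTORC1 inhibitor REDD1, rose 2.51-fold, from 44.6, 41.4, 60.3, 59.2 and 51 CPM in sham libraries to 98, 119 and 168 CPM in the burn libraries without a second number and 119, 146 and 124 CPM in those with one. The groups did not overlap (log2 fold change 1.33 ± 0.14 (SE), adjusted p = 1.28e-05). The set changes were almost equal for both genes, at log2 1.04 and 1.13 for Pik3ip1 and 1.32 and 1.34 for Ddit4.

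Il7r, the receptor chain for the T cell survival cytokine interleukin 7, rose 2.42-fold. Its levels were 146, 134, 140.5, 101 and 156 CPM in sham libraries, 242, 284 and 259.9 CPM in burn libraries 1, 2 and 5, and 325, 438 and 422 CPM in burn libraries 1_2, 4_2 and 5_2. All 6 burn libraries were above sham (log2 fold change 1.28 ± 0.14 (SE), adjusted p = 1.72e-05), and all 3 libraries with a second number were above the other 3, a difference that passed the test between the sets (log2 0.59, edgeR adjusted p = 0.0202). Tsc22d3, which encodes the glucocorticoid-induced leucine zipper protein GILZ, rose 2.44-fold. It was at 418, 472, 583, 630.4 and 784 CPM in sham libraries, 1437, 1685 and 1659 CPM in the libraries without a second number and 1543, 1046 and 1087 CPM in those with one. Burn libraries 4_2 and 5_2 were the lowest of the 6 and still above the highest sham library (log2 fold change 1.29 ± 0.15 (SE), adjusted p = 2.61e-05).

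Of 24 FOXO target and PI3K brake genes, all tested, 5 were higher and 7 were lower (4.24% and 3.36% of all genes), with a median log2 fold change of -0.13 against 0.01 over all genes. The higher ones were Pik3ip1, Ddit4, Il7r, Tsc22d3 and Sesn1, and the lower ones were Foxo1, Foxo3, Irs2, Btg2, Cdkn1b, Inpp4b and Tsc1. After the length trend was taken out, 6 were higher and 3 were lower. Sesn1, a stress-induced inhibitor of mTORC1, rose over the 6 libraries (log2 0.60, edgeR adjusted p = 0.00591) but was not called in the libraries with a second number (adjusted p = 0.0852). Foxo1 itself, the main FOXO factor of T cells, fell (log2 -0.47, edgeR adjusted p = 0.00165), but not with the length trend taken out (log2 -0.14, edgeR adjusted p = 0.483). Sesn1 and the lower members other than Irs2 were named after their values were seen. Irs2, an adaptor of insulin receptor signalling, fell 3.22-fold (log2 fold change -1.69 ± 0.31 (SE), adjusted p = 0.00299). Irs2 was 226 to 403 CPM in sham libraries, 35.6 to 54.9 CPM in the burn libraries without a second number and 109 to 201 CPM in those with one, so it fell in both sets and further in the first (adjusted p between sets = 0.00122). In the list of glucocorticoid response genes, 15 of 20 were tested, 5 were higher and 1 was lower (4.24% and 3.36% of all genes), and 4 of the 5 are members of the list above. Its median log2 fold change was 0.06 in the libraries without a second number and 0.87 in those with one. Without burn library 5_2, 6 of the 15 were higher and 3 were lower. In that fit, calls over all genes rose from 486 higher and 385 lower to 1122 and 771.

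**Figure D3:**
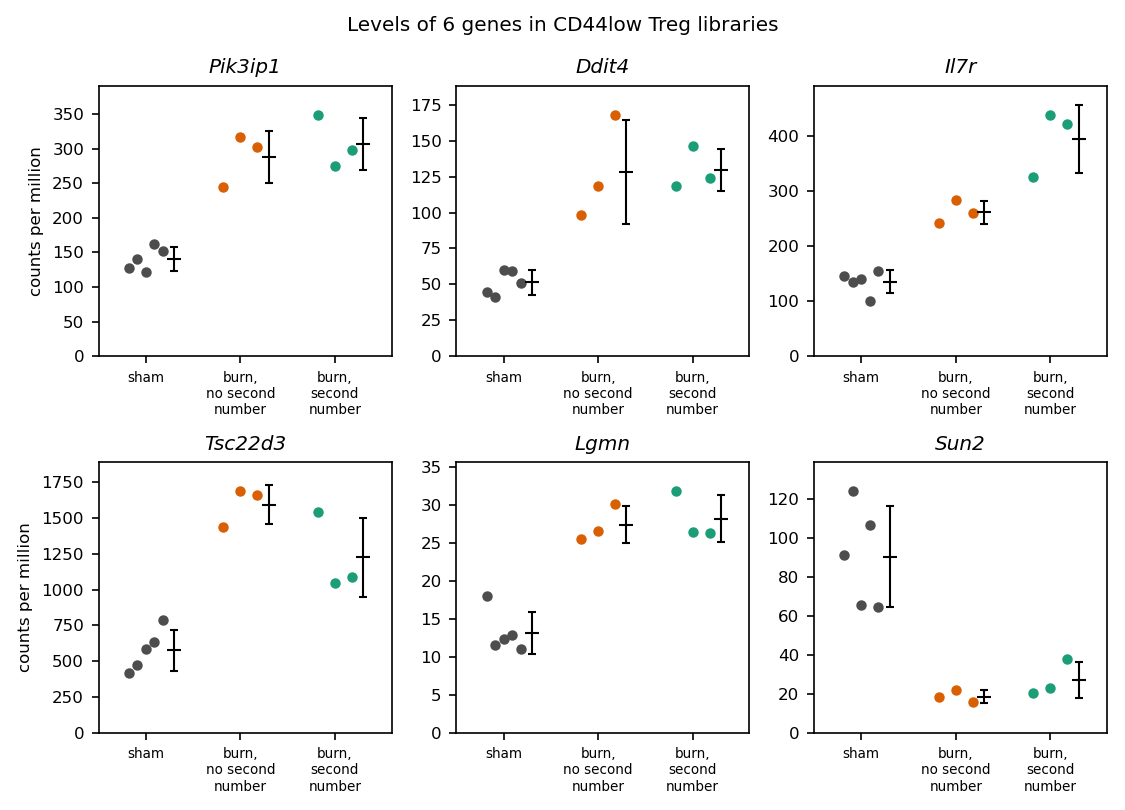
Levels in CPM of 6 genes in each CD44low Treg library, for sham (grey), burn without a second number (orange) and burn with a second number (green). Crosses with bars are mean ± SD (n = 5, 3 and 3), and in each panel all burn libraries lie to one side of all sham libraries.

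Lgmn, which encodes the lysosomal protease legumain, rose 2.11-fold. It was low, at 18, 11.5, 12.3, 12.8 and 11 CPM in sham libraries, 25.4, 26.5 and 30.1 CPM in burn libraries 1, 2 and 5 and 31.7, 26.4 and 26.3 CPM in burn libraries 1_2, 4_2 and 5_2, again without overlap (log2 fold change 1.08 ± 0.13 (SE), adjusted p = 2.69e-05). Of 17 legumain, cathepsin, cystatin and serpin genes tested, 6 were higher and 2 were lower (4.24% and 3.36% of all genes). Ctsc, Ctsa and Ctsb, which encode lysosomal cathepsins, rose by log2 0.61, 0.43 and 0.37, and Ctse, an endosomal aspartic protease, fell (log2 -0.63). The call of Ctsb was lost under 6 of 22 alternatives, among them leaving out sham library 4, burn library 1 or burn library 1_2. Apart from Lgmn, none of the 17 was called in both sets. The list of interleukin and common gamma chain receptors gave 3 of 22 higher and none lower (4.24% and 3.36% of all genes). These were Il7r, Il2rb (log2 0.41, edgeR adjusted p = 0.00467) and the decoy receptor Il1r2 (log2 0.61). The list's median log2 fold change was -0.02 in the libraries without a second number and -0.003 in those with one. Il1r2 was not called with the length trend taken out (log2 0.46, edgeR adjusted p = 0.085). Its call was lost under 7 of 22 alternatives, among them leaving out sham library 1, sham library 2 or burn library 1.

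Sun2 fell 3.96-fold. It encodes an inner nuclear membrane protein of the LINC complex, which joins the nuclear lamina to the cytoskeleton. Sham libraries 1 to 5 held 91.3, 124, 65.3, 106 and 64.7 CPM, burn libraries 1, 2 and 5 held 18.1, 21.9 and 15.6 CPM, and burn libraries 1_2, 4_2 and 5_2 held 20.5, 23 and 37.7 CPM. The highest burn library, 5_2, was well below the lowest sham library (log2 fold change -1.99 ± 0.26 (SE), adjusted p = 8.84e-05). Its partner in the same membrane, Sun1, also fell in both sets (log2 fold change -0.71 ± 0.12 (SE), adjusted p = 0.00114), from 68.6 to 94.6 to 39.6 to 53.6 CPM. Of 14 genes of the LINC complex, lamina and inner nuclear membrane, 4 were lower and none was higher (3.36% and 4.24% of all genes), with Lmnb1 (lamin B1, log2 -0.91) and Syne3 (nesprin 3, log2 -1.07) as the others, and the list's median log2 fold change was -0.20, or -0.03 with the length trend taken out. Lmnb1 and Syne3 were not called in the libraries with a second number (adjusted p = 0.109 and 0.157).

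Among called genes with a mean of at least 10 CPM in the higher group, the steepest falls were in 2 genes of inducible HSP70. HSP70 of this kind is the chaperone that cells make on protein damage. Hspa1a was 2.03, 10.9, 8.23, 10.5 and 37.6 CPM in sham libraries 1 to 5, 0, 0.498 and 0.143 CPM in burn libraries 1, 2 and 5, and 0.690, 0.360 and 0.150 CPM in burn libraries 1_2, 4_2 and 5_2 (log2 fold change -5.43 ± 0.71 (SE), adjusted p = 8.55e-05). Hspa1b was 4.22, 33.6, 19.4, 38.7 and 74.1 CPM in sham libraries, 0.893, 3.99 and 1.28 CPM in the burn libraries without a second number and 3.10, 1.98 and 2.70 CPM in those with one (log2 fold change -3.85 ± 0.53 (SE), adjusted p = 0.000137). The groups did not overlap in either gene, sham library 1 was the lowest of its group and sham library 5 the highest. In CD44high Tregs, Hspa1a was 4.58 to 22.6 CPM in sham and 0.262 to 1.06 CPM in burn libraries. Hspa1b was 7.31 to 30.85 CPM in CD44high sham and 2.37 to 5.4 CPM in CD44high burn libraries, so both genes were lower there too, without overlap. These genes are near-identical copies side by side on chromosome 17, so the split of reads between them is uncertain. Their upstream sequences, shown with that of Hsph1 because these genes moved in opposite directions after burn, differ at 3 of 250 bases. The sequences are the 250 bases before the transcript start in RefSeq (GRCm38.p6, 5′ to 3′ on the gene's strand, which is the minus strand for all 3), and capitals mark matches to GAANNTTC or TTCNNGAA, the core of the heat shock element, searched on both strands since each motif is its own reverse complement. Hspa1a lies at chr17:34972157-34972406, Hspa1b at chr17:34959239-34959488 and Hsph1 at chr5:149636337-149636586.
Hspa1a: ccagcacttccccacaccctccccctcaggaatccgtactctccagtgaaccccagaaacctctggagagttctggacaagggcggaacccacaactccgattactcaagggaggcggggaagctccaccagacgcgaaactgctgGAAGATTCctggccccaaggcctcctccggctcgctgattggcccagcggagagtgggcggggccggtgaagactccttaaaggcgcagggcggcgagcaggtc
Hspa1b: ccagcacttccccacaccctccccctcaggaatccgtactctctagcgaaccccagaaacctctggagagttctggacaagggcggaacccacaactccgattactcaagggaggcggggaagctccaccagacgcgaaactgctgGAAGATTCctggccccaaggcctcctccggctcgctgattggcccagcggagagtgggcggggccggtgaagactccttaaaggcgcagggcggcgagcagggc
Hsph1: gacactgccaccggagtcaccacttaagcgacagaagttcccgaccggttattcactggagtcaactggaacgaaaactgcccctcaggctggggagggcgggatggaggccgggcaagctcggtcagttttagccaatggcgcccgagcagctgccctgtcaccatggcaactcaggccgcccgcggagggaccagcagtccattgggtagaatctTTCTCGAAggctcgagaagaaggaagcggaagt

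Each of these windows held 1 match. At least 1 match was in 12.8% of 32851 such windows, or in 1 or more windows of 14.5% of 27025 genes, and 10 of the 19 heat shock genes with a window held 1 to 3 matches. Hsph1, which encodes the nucleotide exchange factor HSP110, rose 1.96-fold over the 6 libraries (log2 fold change 0.97 ± 0.18 (SE), adjusted p = 0.00331). Its levels were 94.9, 75.6, 128, 115 and 130.5 CPM in sham libraries, 233, 298 and 259 CPM in burn libraries 1, 2 and 5 and 209.6, 166 and 113 CPM in burn libraries 1_2, 4_2 and 5_2. Burn library 5_2 lay inside the sham range, and the libraries with a second number alone did not pass the test (adjusted p = 0.0616). Of 23 heat shock protein and cochaperone genes tested, 9 were higher and 3 were lower (4.24% and 3.36% of all genes). Among the higher ones, Stip1, the cochaperone that links HSP70 to HSP90, rose by log2 0.90 and Hsp90ab1, the abundant constitutive HSP90, by log2 0.75. None of the 9 was called in both sets, whereas both HSP70 genes were. Without burn libraries 4_2 and 5_2, 13 were higher and 2 were lower. In that fit, calls over all genes rose from 486 higher and 385 lower to 1321 and 1031. The summed level of the list was 4620, 4681, 5819, 5132 and 5634 CPM in sham libraries, 8605, 8209 and 8333 CPM in the burn libraries without a second number and 7074, 5392 and 4851 CPM in those with one, so burn libraries 4_2 and 5_2 lay in the sham range.

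**Figure D4:**
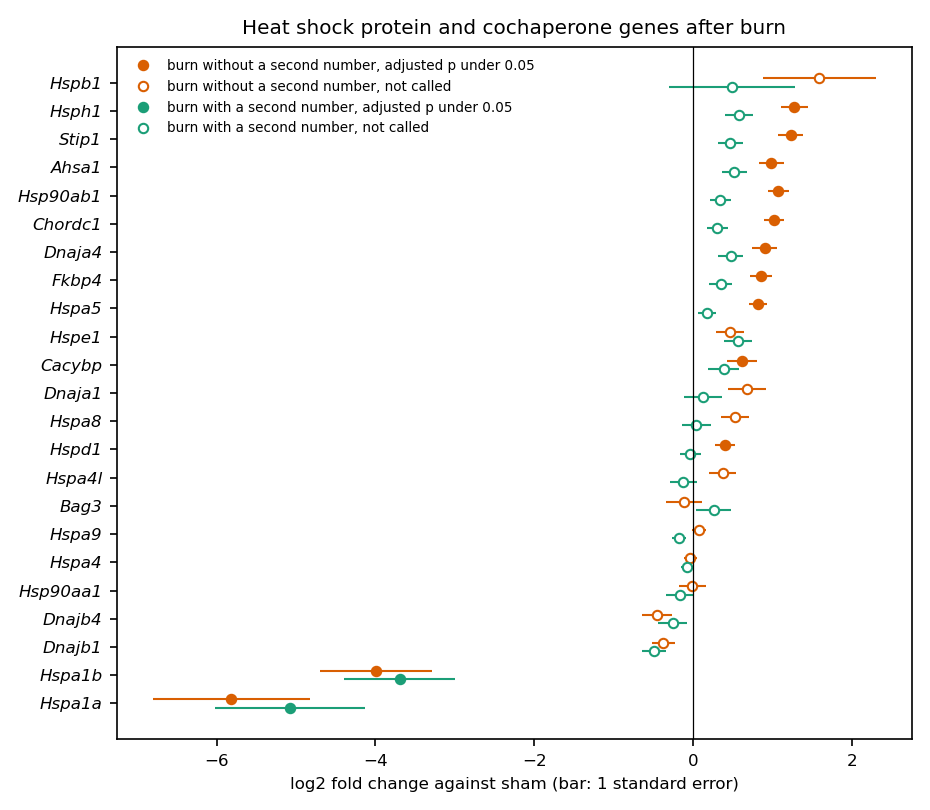
Log2 fold change against sham (± 1 SE) of 23 heat shock protein and cochaperone genes in burn libraries without a second number (orange) and with a second number (green). Filled points passed an adjusted p of 0.05, and Hspa1a and Hspa1b are the only genes filled in both sets.

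Of 30 genes of effector Tregs tested, 12 were higher and none was lower, against 4.24% and 3.36% of all genes, with a median log2 fold change of 0.41. The fold change was positive in 22 of the 30, and 8 were called in both sets. The summed level was 2607, 2539, 2543, 2489 and 2413 CPM in sham libraries, 3844, 3137 and 3090 CPM in burn libraries 1, 2 and 5 and 3380, 3229 and 2989 CPM in burn libraries 1_2, 4_2 and 5_2, without overlap of burn and sham. Icos, a costimulatory receptor, rose 1.81-fold (log2 fold change 0.86 ± 0.13 (SE), adjusted p = 0.000342) from 113 to 153 to 201 to 355 CPM. Ctla4, which removes costimulatory ligands from antigen-presenting cells, rose 1.66-fold (log2 fold change 0.73 ± 0.11 (SE), adjusted p = 0.000634) from 183 to 246 to 282 to 406 CPM. Ebi3, a subunit of interleukin 35, rose by log2 1.04, and Cd83, a surface activation marker, by log2 0.79. Klrg1, a marker of terminally differentiated Tregs, rose by log2 1.68 at low levels that overlapped, 0.852 to 5.20 CPM in sham and 3.14 to 10.1 CPM in burn libraries.

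Of 17 chemokine receptor genes tested, 5 were higher and none was lower (4.24% and 3.36% of all genes), and 14 had a positive fold change. Ccr2, a receptor for monocyte-attracting chemokines, went from 8.52 to 16 to 16.9 to 32.4 CPM (log2 1.03, edgeR adjusted p = 0.00178), and Ccr10, a skin-homing receptor, from 0 to 1.84 to 1.99 to 5.21 CPM (log2 1.77). Ccr10 was not called by edgeR on the CD44low libraries alone (adjusted p = 0.0554) or by voom with sample quality weights (adjusted p = 0.0884). Cxcr6 rose by log2 1.18, with burn library 1_2 within the sham range, and was not called in the libraries with a second number (adjusted p = 0.0689). Ccr7, the most abundant receptor and the one for lymph node homing, was not called (adjusted p = 0.401). Of 24 genes for S100 proteins, annexins, galectins and related proteins, 6 were higher and none was lower (4.24% and 3.36% of all genes). A positive fold change was found in 19 of them. Without burn library 5_2, 12 of the 24 were higher, and higher calls over all genes rose from 486 to 1122. S100a6, a calcium-binding protein, was 16.1, 25.4, 17.2, 19.7 and 16 CPM in sham libraries, 44.8, 31.1 and 28.1 CPM in burn libraries 1, 2 and 5 and 63.6, 54.3 and 46.5 CPM in burn libraries 1_2, 4_2 and 5_2. All burn libraries were above sham and those with a second number were the 3 highest (log2 fold change 1.24 ± 0.18 (SE), adjusted p = 0.000249, adjusted p between sets = 0.0406). Anxa2, which binds membrane phospholipids, rose 1.97-fold and Lgals3, or galectin 3, rose 3.62-fold from 0.313 to 2.73 to 4.65 to 8.56 CPM.

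Of 40 genes of mitosis tested, 7 were higher and none was lower (4.24% and 3.36% of all genes), with a median log2 fold change of 0.54, and 4 were called in both sets. Ccnb2, or cyclin B2, went from 1.09 to 3.15 to 4.42 to 10.2 CPM (log2 fold change 1.59 ± 0.24 (SE), adjusted p = 0.000554), Hmmr, a spindle protein, from 0 to 0.473 to 0.517 to 3.28 CPM, and Racgap1, which acts in cytokinesis, from 8.44 to 18.3 to 21.3 to 32.4 CPM (log2 0.97). Gas2l3, a cytoskeletal linker of dividing cells, had no count in any sham library and 26 counts over the burn libraries, which made it at least 7.12-fold higher against a floor of 3 counts over the sham group. Burn libraries 1, 2 and 5 held 10, 6 and 4 of its counts and burn libraries 1_2, 4_2 and 5_2 held 3, 0 and 3, and it was not called where the latter were the only burn libraries fitted (edgeR adjusted p = 0.0503). Hrh4, a histamine receptor, had 27 counts against none, at least 7.39-fold higher by the same floor, with no count in burn libraries 5 and 1_2. Of 36 DNA replication genes, 2 were higher, a share near the 4.24% of all genes, among them Tyms, which encodes thymidylate synthase (log2 1.09). Without burn library 5_2, 4 of the 36 were higher, and higher calls over all genes rose from 486 to 1122.

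Many of these effector genes are far more abundant in CD44high Tregs. CD44high sham libraries held 1620 to 2024 CPM of Icos, 453 to 641 CPM of S100a6, 158 to 177 CPM of Ccnb2 and 188 to 261 CPM of Ccr10. The study's list of genes of CD44high Tregs, which was chosen on these libraries and shares members with the lists above, had 10 of 29 higher and none lower (4.24% and 3.36% of all genes), and its most abundant gene in CD44low libraries was Ctla4. Its summed level was 1377, 1416, 1440, 1317 and 1209 CPM in CD44low sham libraries and 2085, 1630 and 1732 CPM and 1570, 1741 and 1748 CPM in the CD44low burn libraries without and with a second number, against 9069 to 10010 CPM in CD44high sham libraries. The part of CD44high cells in the CD44low gate in these results was not tested, and in bulk libraries more cells of a kind and more RNA per cell cannot be told apart. Pik3ip1 was 245 to 349 CPM in CD44low burn libraries, 55.6 to 68.2 CPM in CD44high sham and 76 to 102 CPM in CD44high burn libraries, and Tsc22d3 was 1046 to 1685, 310.4 to 432 and 544 to 665 CPM. For both genes every CD44low burn library lay above every CD44high library. Ddit4 and Cd69 overlapped, at 98 to 168 and 262 to 362 CPM in CD44low burn against 68 to 103 and 234 to 291 CPM in CD44high burn libraries.

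**Figure D5:**
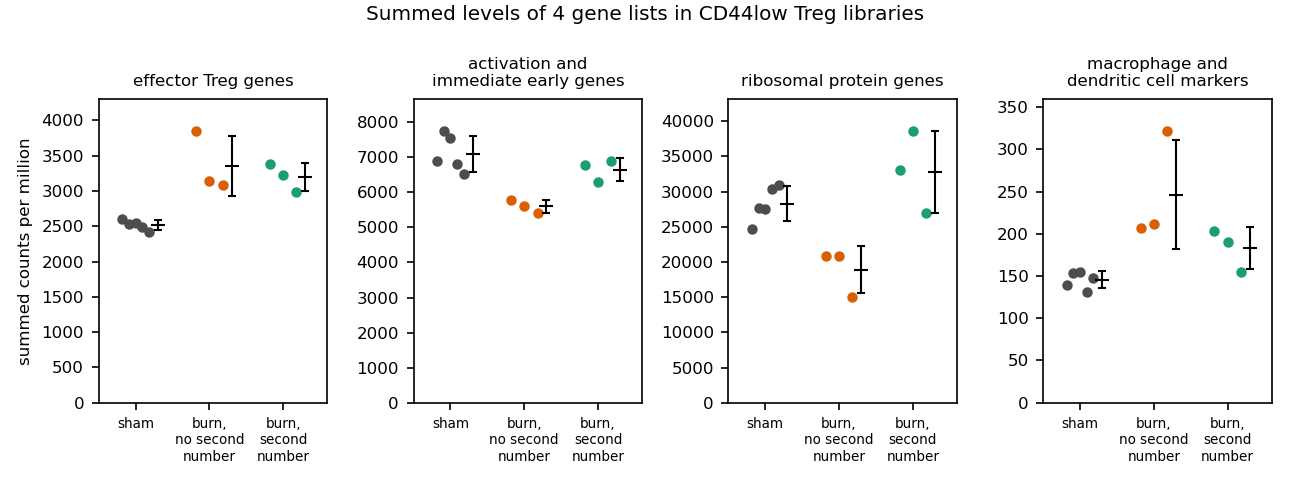
Summed CPM of 4 gene lists in each CD44low Treg library, for sham (grey), burn without a second number (orange) and burn with a second number (green), with mean ± SD. Effector Treg genes are higher in all 6 burn libraries, whereas ribosomal protein genes and activation genes lie lowest in the burn libraries without a second number.

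Activation genes were called in both directions. Cd69, an early activation marker that holds T cells in lymphoid tissue, rose 2.01-fold. It was 106, 162, 176, 168 and 166 CPM in sham libraries, 362, 351 and 323 CPM in burn libraries 1, 2 and 5 and 289, 289.5 and 262 CPM in burn libraries 1_2, 4_2 and 5_2. The groups did not overlap, and sham library 1 lay apart below the other 4 (log2 fold change 1.01 ± 0.12 (SE), adjusted p = 2.69e-05). Ifngr1, the ligand-binding chain of the interferon gamma receptor, rose 1.69-fold from 441 to 512 to 708 to 925 CPM (log2 fold change 0.76 ± 0.09 (SE), adjusted p = 2.69e-05). Of 25 genes of the T cell receptor response tested, 2 were higher and 5 were lower (4.24% and 3.36% of all genes). Without burn library 5_2 these were 3 and 8, and calls over all genes rose from 486 and 385 to 1122 and 771. Dusp5 and Dusp4, phosphatases that switch off ERK and are induced by it, fell in both sets (log2 -0.90 and -0.89 over the 6 libraries). Jun, a subunit of the AP-1 transcription factor, was 380.1, 483, 428, 400.3 and 474 CPM in sham libraries, 72.5, 109 and 115 CPM in burn libraries 1, 2 and 5 and 232, 216 and 326 CPM in burn libraries 1_2, 4_2 and 5_2. Jun fell in both sets and lay lowest in the first (log2 fold change -1.28 ± 0.25 (SE), adjusted p = 0.00355).

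Other genes called in both sets without overlap fell outside the lists or led small ones. Among higher genes, Stom, which encodes the membrane protein stomatin, went from 1.18 to 2.56 to 6.13 to 10.2 CPM (log2 1.88, edgeR adjusted p = 7.61e-05), with library 4_2 apart above the other 5. D17H6S56E-5 went from 116 to 142 to 225 to 277 CPM (log2 0.90, edgeR adjusted p = 4.82e-06), 1 of the 2 smallest p-values of the comparison. Among lower genes, Zfp658, a zinc finger gene, fell 3.09-fold from 16.4 to 22.2 to 4.46 to 8.10 CPM (log2 fold change -1.63 ± 0.21 (SE), adjusted p = 7.61e-05). Itga4, the α4 integrin chain of VLA-4, fell from 133 to 159.9 to 75.2 to 104 CPM, and Rgs2, which turns off signalling by G protein-coupled receptors, from 87.7 to 116 to 35 to 67.7 CPM. Gimap8, a GTPase of lymphocyte survival, fell (log2 -0.62), whereas Gimap3 and Gimap7 of the same family rose over the 6 libraries (log2 0.41 and 0.61). Neither Gimap3 nor Gimap7 was called in both sets, or with the libraries with a second number as the only burn libraries. Gimap7 was also not called without sham library 1 or without burn library 1_2. Klhl9, a substrate adaptor of a ubiquitin ligase, Gnl3l, a nucleolar GTPase, and Ddx6, an RNA helicase of mRNA decay, fell (log2 -0.81, -0.68 and -0.69). Bbc3, which encodes the pro-apoptotic protein PUMA, rose by log2 1.08, and Bad, another BH3 protein, by log2 0.71. Sham libraries held 34.4 to 44.4 CPM of Bbc3. The burn libraries without a second number held 56.8 to 68.5 CPM and those with one 94.9 to 143 CPM.

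By size of change among genes of at least 10 CPM in the higher group, Lman2l, Irf2bp2, Ski, Ddit4 and Taf4 were the 5 that rose most. Lman2l, a cargo receptor of the early secretory pathway, was 13.1, 11.7, 20.9, 20.3 and 16.9 CPM in sham libraries, 99, 65 and 91 CPM in burn libraries 1, 2 and 5 and 36.7, 30.4 and 23.4 CPM in burn libraries 1_2, 4_2 and 5_2. It was above sham in every burn library and further above in the first set (adjusted p between sets = 0.00256). Lman2l was not called where the libraries with a second number were the only burn libraries fitted (edgeR adjusted p = 0.05055). Ski, a repressor of SMAD signalling, rose by log2 1.36. Irf2bp2 and Taf4, a corepressor and a subunit of TFIID, rose by log2 1.48 and 1.29 over the 6 libraries but were not called in the libraries with a second number (adjusted p = 0.0994 and 0.0927). The 5 that fell most were Hspa1a, Hspa1b, Sun2, Irs2 and Zfp658.

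The sets of burn libraries differed from each other in 400 genes, of which 290 (2.49%) were higher and 110 (0.944%) were lower in the libraries with a second number. Fos, the partner of Jun in AP-1, was 165, 316, 315, 189 and 288 CPM in sham libraries, 13.5, 16.4 and 14.1 CPM in burn libraries 1, 2 and 5 and 141, 138 and 232 CPM in burn libraries 1_2, 4_2 and 5_2. Its log2 fold change against sham was -4.11 (edgeR adjusted p = 4.7e-08) in the first set and -0.58 (edgeR adjusted p = 0.175) in the second. Junb and Ppp1r15a, a stress-induced regulator of eIF2α, had the same form, at log2 -1.72 and -1.98 in the first set and -0.40 and -0.32 in the second. Rbm3, a cold-inducible RNA-binding protein, was 62 to 80.7 CPM in the first set and 169.6 to 184 CPM in the second, where it lay beside the sham range of 175 to 203 CPM. Pabpc1, the poly(A)-binding protein, was 321 to 389 CPM in sham libraries, 206 to 252 CPM in the first set and 444 to 615 CPM in the second, and was called lower in one and higher in the other. The other 2 genes with opposite calls, named after their values were seen, were Lars2 and Pum2. Rnf145, Lcp1, Plod1, Hsp90b1 and Tm9sf2 were higher in the first set than in the second, by log2 differences (second minus first) from -1.31 for Plod1 to -0.55 for Lcp1, and none of the 5 was called over the 6 libraries.

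Ribosomal RNA and ribosomal protein genes moved with the sets too. The 45S ribosomal RNA precursor took 0.337% to 0.442% of counts in sham libraries, 0.0777%, 0.0697% and 0.0292% in burn libraries 1, 2 and 5, and 0.310%, 0.786% and 0.459% in burn libraries 1_2, 4_2 and 5_2. None of 74 cytosolic ribosomal protein genes was called over the 6 libraries, and their median log2 fold change was -0.66 in the first set and 0.23 in the second. The labels name no batch and do not give the meaning of the second number, which all sham libraries lack. The part of library preparation in the difference between sets was not tested.

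Some genes called over the 6 libraries missed the threshold in the libraries with a second number, where their change had the same direction. Of these, the higher genes with the smallest p were Hsph1, Ctsc, Gpr183, Cxcr6 and Inip, and the lower ones were Tob2, Eif4ebp2, Rgs16, Lsm14b and Slc2a9. Ctsc missed the threshold there (adjusted p = 0.0619) but passed it where the libraries with a second number were the only burn libraries fitted (log2 0.39, edgeR adjusted p = 0.0489). Gpr183, an oxysterol receptor that positions lymphocytes, was 189 to 205 CPM in the first set and 130.4 to 162 CPM in the second, with sham at 84.4 to 109.6 CPM. Both sets were above sham, and the second missed the threshold narrowly (adjusted p = 0.0514). Rgs16, a regulator of chemokine receptor signalling, and Eif4ebp2, a translation repressor downstream of mTOR, fell over the 6 libraries (log2 -0.94 and -0.67), and in the second set they were at log2 -0.63 and -0.57 (adjusted p = 0.0742 and 0.0504), with every library below every sham library.

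The next lists stand beside shares of 4.24% higher and 3.36% lower over all genes. Without burn library 5_2, calls over all genes rose from 486 higher and 385 lower to 1122 and 771. Resting T cell genes gave 1 higher and 1 lower of 24, and 1 and 3 without burn library 5_2. The 2 were Rflnb (log2 0.62) and Foxp1 (log2 -0.32, or -0.03 with the length trend taken out). Interferon-stimulated genes gave 2 higher and 1 lower of 40, and 2 and 3 without burn library 5_2. MHC class I genes gave 2 and 1 of 20. They gave 0 and 1 with the length trend taken out, and 5 and 1 without burn library 5_2. BCL2 family genes gave 3 and 0 of 16. Of 7 follicular T cell genes tested of 10, 4 were higher (4.24% of all genes), with Tox2, a transcription factor (log2 1.16), called in both sets. The list, in which Slamf6 was most abundant, summed to 480.2 to 527 CPM in sham and 565 to 732 CPM in burn libraries, without overlap, and 2 of the 7 were higher after the length trend was taken out. Genes of cholesterol synthesis and uptake gave 3 lower of 23 (3.36% of all genes) and none higher, and 1 lower with the length trend taken out. Clock genes gave 1 higher of 18, Arntl (log2 0.49). Arntl was not called with only the burn libraries with a second number, or by edgeR on the CD44low libraries alone. None of 19 glycolysis genes and none of 4 Y-linked genes was called. Without burn library 5_2, 2 glycolysis genes were higher, and with the length trend taken out 1 Y-linked gene was lower.

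Markers of other cells were measured beside these results. Higher calls over all genes rose from 486 to 1122 without burn library 5_2 and to 1321 without burn libraries 4_2 and 5_2. No B cell marker (14 tested) and no MHC class II gene (10 tested) was called. Without burn library 5_2, 2 MHC class II genes were higher. Without burn libraries 4_2 and 5_2, 2 MHC class II genes and 1 B cell marker were higher. With DESeq2, 1 of each was higher. The MHC class II list, led by Cd74, summed to 605 to 928 CPM in sham and 798 to 1476 CPM in burn libraries, with burn library 5 the highest, and the B cell list, led by Cd79b, summed to 122 to 243 CPM in sham and 163 to 319 CPM in burn libraries. Of 16 macrophage and dendritic cell markers tested of 22, 2 were higher (4.24% of all genes), Lyz2 (log2 1.27) and Tyrobp (log2 1.34). Neither was called in the libraries with a second number (adjusted p = 0.436 and 0.415) or with the length trend taken out (edgeR adjusted p = 0.058 and 0.0665). Without burn library 5_2, 4 of the 16 were higher, and without burn libraries 4_2 and 5_2, 5 were. The list, in which Cst3 was most abundant, summed to 139.5, 154, 154, 131 and 148 CPM in sham libraries, 206, 211 and 321 CPM in burn libraries 1, 2 and 5 and 204, 191 and 155 CPM in burn libraries 1_2, 4_2 and 5_2. Burn library 5 was the highest. Of 13 neutrophil markers, 4 were tested and S100a9 was higher, at 0, 12.6 and 3.14 CPM in burn libraries 1, 2 and 5, but not without burn library 2 (edgeR adjusted p = 0.0791) or without any 1 of sham libraries 1 to 4, while Ly6g, Elane and Mpo had no count in any of the 11 libraries. The neutrophil list summed to at most 8.19 CPM in sham libraries and to 55.2 CPM in burn library 2. Of 11 CD8 T cell and NK cell markers tested, Klrb1c (log2 3.00) was higher, though not called in the libraries with a second number (adjusted p = 0.0944), and none of 3 stromal markers was called. Hemoglobin genes and 6 stromal markers, among them Col3a1 and Pdgfra, had no count in any of the 11 libraries. The part of these cells in the results was not tested.

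In CD44high Tregs, 4 burn and 4 sham libraries were fitted in the same model, and the difference between the responses was tested. It passed an adjusted p of 0.05 in 74 genes (0.645%), among them 27 of the 179 genes called in both sets. The 179 were picked by their response in CD44low Tregs, which is part of this difference, so nothing is read from their share. Il7r rose in CD44low Tregs and was not called in CD44high Tregs (edgeR adjusted p = 0.93), at 303 to 373 CPM in sham and 326 to 409.6 CPM in burn libraries (difference of responses, log2 1.23, edgeR adjusted p = 0.00417). Sun2 differed likewise (log2 -2.37, edgeR adjusted p = 0.00383), and was already low in CD44high sham libraries, at 12.5 to 23 CPM. The difference of responses (CD44low minus CD44high) was log2 1.49, 1.16, 2.40, 2.17 and 3.21 for S100a6, Anxa2, Lgals3, Ccnb2 and Ccr10. In CD44high Tregs their own fold changes were log2 -0.25, -0.17, -0.55, -0.58 and -1.44, of which that of Ccr10 passed the test (edgeR adjusted p = 0.000438). No difference of responses passed the test for Pik3ip1 (log2 0.51 ± 0.16 (SE), edgeR adjusted p = 0.168), Ddit4 (log2 0.20 ± 0.22), Tsc22d3 (log2 0.62 ± 0.23) or Cd69 (log2 0.20 ± 0.18), all of which were also called higher in CD44high Tregs, by log2 0.57, 1.13, 0.67 and 0.81.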

How the data were processed

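RNA from sorted CD44low and CD44high Tregs had been amplified with a SMART-Seq kit and sequenced. The authors aligned and counted the reads with STAR in the VIPER workflow, and they deposited raw counts per gene, without normalization, for each of 19 libraries. The submitters' processing notes name bcl2fastq 2.18 and STAR 2.5, and both mm9 and mm10, without saying which build made the counts. Of 24982 listed symbols, written in capitals, 24463 matched GENCODE vM21 and 364 matched RefSeq only, 26 had been turned into dates and 129 had no match. Totals of the CD44low libraries lay between 5582234 and 8011051 counts, and reads carry no molecular identifiers, so a floor of 3 counts covers counting error only.

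Counts were fitted with edgeR 4.0.16 in R 4.3.3 (minimum count of 10, TMM factors, 1 mean per group, no covariates) and tested by the quasi-likelihood test, 2-sided, with Benjamini-Hochberg adjustment over all genes tested. Burn against sham and the difference from CD44high Tregs came from a model of 4 groups over 11464 genes, and the sets of burn libraries from a model of 5 groups over 11648 genes. Adjusted p-values in the text are from these fits, unless another fit is named beside them. CPM values use TMM factors. The study's own tests used DESeq2, which was run as an alternative (1.42.0), beside limma 3.58.1 (voom), other scaling and filters, and leaving out each library.

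Named genes were the 6 of the comparison's marker list, 12 in each direction with the smallest p among genes called in both sets without overlap, 5 in each direction by size of change at 10 CPM or more, 5 in each direction by the difference between sets, 5 in each direction called over 6 libraries but not in 1 set, genes named by the study, 4 genes of the sort, and up to 4 members with the smallest p and the most abundant gene of each list. Unnamed gene models were left out, and some genes picked by these rules are not reported here. The members, lists and rules were chosen with earlier results of these data known. Lists are described by counts and medians, without a test. The cell sorting, single-cell and protein data were not used here, and mitochondrially encoded genes were not analysed here.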

Additional observations from a re-analysis of the deposited data

Results flagged for a closer look

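In 59 named genes, a library was taken as standing apart where its gap to the nearest other library exceeded Dixon's 95% critical value for the share of its group's whole log2 range. This was so in 4 of 118 groups, and chance alone gives about 1 in 20. Sham library 1 was apart below the other sham libraries for Cd69, at 106 CPM, with a gap of 0.829 of the range, and apart above them for Lcp1, at 2930 CPM, with a gap of 0.786. Burn library 4_2 was apart above the other burn libraries for Stom, at 10.2 CPM (0.948), and burn library 1 for Icos, at 355 CPM (0.745). Without sham library 1, Cd69 was still called, with a log2 fold change of 0.92.

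The response to burn differed between CD44low and CD44high Tregs at an adjusted p under 0.05 (edgeR, difference of responses, CD44low minus CD44high, log2) in 14 of the 59 genes, against 0.645% of all genes. Most of the 59 were picked by their response in CD44low Tregs, so nothing is read from this share. The difference was positive for Il7r (1.23), D17H6S56E-5 (0.93), Anxa2 (1.16), S100a6 (1.49), Cxcr6 (1.59), Ccnb2 (2.17), Lgals3 (2.40), Ccr10 (3.21) and Gas2l3. The fitted value for Gas2l3, 5.75, depends on the prior count, since no CD44low sham library held a count, and is not a size of the difference. Ccr10 and Racgap1, a list member, fell in CD44high Tregs (log2 -1.44 and -0.76, edgeR adjusted p = 0.000438 and 0.0147). The difference was negative for Sun2 (-2.37), Gimap8 (-0.71), Klhl9 (-0.95), Itga4 (-1.27) and Gpr183 (-1.06). Gpr183 rose in both subsets, by log2 0.79 in CD44low Tregs and 1.85 in CD44high Tregs, and Itga4 was at log2 -0.74 in CD44low Tregs and at log2 0.53 in CD44high Tregs (edgeR adjusted p = 0.0556).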

How the results depend on the processing

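Of 98 named genes called over the 6 libraries, 50 kept their direction and their call under every alternative run for them, up to 22, among them Pik3ip1, Ddit4, Il7r, Tsc22d3, Lgmn, Sun2, Hspa1a and Hspa1b. The other 48 lost the call under at least 1 alternative, 41 of them with the burn libraries with a second number alone, and none reversed. Reversals were in genes that were not called: Pabpc1 was at log2 -0.24 with voom and sample quality weights, -0.58 with the burn libraries without a second number alone and -0.11 without burn libraries 4_2 and 5_2, Rnf145, Lcp1 and Foxp3 were at -0.31, -0.14 and 0.22 with the libraries with a second number alone, and Cd44 was at 0.063 with the length trend taken out. The causes of these changes were not tested.

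Counts of calls moved more than single genes. With each CD44low library left out in turn, higher genes lay between 303 (without burn library 1_2) and 1122 (without 5_2) and lower genes between 175 (without sham library 1) and 771 (without 5_2). Genes past 1e-06 and 2-fold lay between 12 and 29, responses that differed from CD44high Tregs between 62 and 101, calls in the libraries without a second number between 430 and 1739 and with one between 129 (without 4_2) and 1547 (without 5_2), differences between sets between 108 and 634, and calls in both sets between 41 and 315 higher and between 21 and 189 lower, lowest without 4_2 and highest without 5_2. Where 2 libraries remained in a set, the spread was pooled over all groups.

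DESeq2 called 936 higher over the 6 libraries (531 lower), 42 past 1e-06 and 2-fold, 1003 in the libraries with a second number, 247 higher and 135 lower in both sets, 672 between sets and 210 responses that differed. Voom with sample quality weights gave 924 higher and 993 lower, 27, 2835 in the libraries without a second number and 1332 in those with one, 240 and 258 in both sets, 2165 between sets and 360. EdgeR on the CD44low libraries alone gave 211 higher and 252 lower, 210 in the libraries with a second number, and 48 and 42 in both sets. The higher share of calls was 55.8% in the main analysis, 45.6% with the CD44low libraries alone and 63.5% with RLE factors. Without a filter on low counts, 27 genes passed 1e-06 and 2-fold. The burn libraries without a second number alone gave 858 and 890, 32 and 314, and those with one 303 and 142, and 136 responses that differed. Without burn libraries 4_2 and 5_2, an alternative chosen after seeing the data, the counts were 1321 and 1031, 34 and 149, and with the length trend taken out, chosen likewise, 131 responses differed. At p under 1e-05 and 2-fold 29 genes passed, and at an adjusted p under 0.05 and 2-fold 143. At an adjusted p under 0.01 in each set, 25 were higher and 13 lower in both.

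With the replicate number as a block, 218 genes were higher and 222 lower, and 57 responses differed from CD44high Tregs. CD44low burn and sham libraries with the same number had deviations that correlated at -0.12 to 0.01, so the numbers gave no sign of pairing between them. Pairing of CD44low with CD44high libraries by number was not tested.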
